A study of Homo sapiens with 6 samples.

Results

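The 106 genes described here are the well expressed long noncoding RNAs (lncRNAs) of MDA-MB-231 cells. They were chosen from the deposited count table as lncRNA genes with a mean of at least 400 raw counts over the 6 libraries. Antisense genes named with -AS, SNHG genes, MALAT1, NEAT1, KCNQ1OT1, GAS5 and ZFAS1 were left out by name. The table held 28675 genes, of which 7990 were lncRNA genes. A mean of at least 400 counts was reached by 157 of these, and 51 of the 157 were left out by name. The mean count over all libraries chose the members, so their high levels are a description and not a finding, while the contrast between groups played no part in the choice. All 106 passed the filter on low counts. Just inside the minimum stood CTB-102L5.9 and RP11-290L1.3 with a mean of 400.5 counts each and XXbac-BPG300A18.13 with 407.5. Just outside stood NRAV with 398.3, LINC00665 with 393 and RP11-400K9.4 with 391.

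The libraries were made from MDA-MB-231 cells, an established line from a triple-negative breast cancer, and compared cells overexpressing LARP6 (3 libraries) with a no-load control (3 libraries). LARP6, a member of the La-related proteins, binds RNA and is best known for its binding of collagen mRNAs, and the study asked which RNAs it binds and how it affects splicing in triple-negative breast cancer. The labels do not describe the vector, its promoter, a selection or a time point, and do not say whether replicate libraries stand for separate cultures. The p-values therefore cover only the variation among these 6 libraries, which could be technical. LARP6 itself had 1995, 2198 and 2131 CPM (depth-normalised read counts) in LARP6 libraries 1, 2 and 3, against 44.2, 40.7 and 43.3 CPM in control libraries 1, 2 and 3. A count for LARP6 cannot separate the introduced copy from the cells' own. VIM, CD44, LOX and ZEB1, markers of this mesenchymal-like line, were expressed, whereas SPARC stayed at or below 0.369 CPM in every library. ESR1 and PGR were at or below 0.221 CPM, ERBB2 stood at 54.2 to 59.3 CPM and EPCAM at 14.4 to 16.4 CPM. CDH1 stood at 6.71 to 8.34 CPM. Among markers of other cell types, CD3E, COL3A1 and ALB were at or below 0.122 CPM, and PTPRC and DCN at or below 0.492 CPM. LUM stood higher at 1.89 to 3.48 CPM and PECAM1 at 4.74 to 7.13 CPM. Library totals were 29409101 to 33387050 counts.

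Long noncoding RNAs are transcripts that are not known to be translated into stable proteins. Some act as RNAs, by titrating proteins or by regulating a neighbouring gene, and some are the primary transcripts from which microRNAs (miRNAs) are cut by Drosha and Dicer. Others lie across the exons of a protein-coding gene, on its own strand or on the opposite one, and for these a read count has to be divided between overlapping genes.

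Some miRNAs lie within the annotated span of a member gene. In GENCODE v29 and RefSeq annotations of GRCh38, 9 members held 22 mature miRNAs within their span and on their strand. The sequences below are RefSeq's (GRCh38.p14), written 5′ to 3′ with the seed, bases 2 to 8, in capitals, for those members and miRNAs that the values below turn on. The libraries measured the host genes only, not the mature miRNAs. The longest GENCODE v29 transcripts of MIR222HG, LINC00472 and CYTOR do not extend over the miRNAs listed for them. Gene counts do not say whether the transcripts that changed span a miRNA.
miR-221-3p: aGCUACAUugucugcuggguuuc
miR-222-3p: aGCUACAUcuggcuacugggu
miR-30a-5p: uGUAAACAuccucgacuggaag
miR-30c-5p: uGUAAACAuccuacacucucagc
let-7a-5p: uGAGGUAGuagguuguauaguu
miR-4458: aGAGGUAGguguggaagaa
miR-100-5p: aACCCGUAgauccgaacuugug
miR-125b-5p: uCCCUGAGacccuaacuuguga
miR-22-3p: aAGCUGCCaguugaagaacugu
miR-4435: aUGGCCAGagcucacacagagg
miR-4449: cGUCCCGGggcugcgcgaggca
The pair from MIR222HG, miR-221-3p (chrX:45746180-45746202) and miR-222-3p (chrX:45747036-45747056), shares the seed GCUACAU and lies in introns of its host. The pair from LINC00472, miR-30a-5p (chr6:71403595-71403616) and miR-30c-5p (chr6:71377003-71377025), shares GUAAACA and is also intronic. MIR100HG holds let-7a-5p (chr11:122146568-122146589), miR-100-5p (chr11:122152275-122152296) and miR-125b-5p (chr11:122099809-122099830) in introns, and let-7a-5p shares the seed GAGGUAG with miR-4458, which lies in an exon of MIR4458HG (chr5:8460933-8460951). The exonic miR-22-3p (chr17:1713914-1713935) belongs to MIR22HG. The same mature miR-4435 is found in an exon of CYTOR (chr2:87629764-87629785) and in an intron of MIR4435-2HG (chr2:111321061-111321082), and miR-4449 lies in an intron of DANCR (chr4:52712720-52712741).

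NORAD carries another kind of regulatory sequence. It is a cytoplasmic lncRNA known for being induced by DNA damage and for sequestering Pumilio proteins through repeated copies of their recognition element. A search of its own strand for TGTANATA, with N for any base, found 15 copies in its 5339-base single-exon transcript (chr20:36045622-36050960, minus strand, GRCh38), or 2.81 per 1000 bases. Of the 103 members with a GENCODE v29 transcript, 14 held at least 1 copy, and no member other than NORAD held more than 4. Among 7224 lncRNA transcripts of the table, 10.4% held at least 1 copy and 4, NORAD included, held at least 15. The stretch with the densest copies, transcript positions 1239 to 1458 (chr20:36049503-36049722, minus strand, GENCODE v29 on GRCh38), is shown 5′ to 3′ with its 3 matches in capitals.
NORAD: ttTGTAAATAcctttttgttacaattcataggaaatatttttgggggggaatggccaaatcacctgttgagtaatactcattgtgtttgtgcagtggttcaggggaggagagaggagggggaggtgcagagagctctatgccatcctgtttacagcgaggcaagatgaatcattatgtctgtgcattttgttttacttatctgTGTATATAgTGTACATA

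Changes with LARP6 overexpression were small and ran in both directions. Of the 106 lncRNAs, 17 (16.0%) passed an adjusted p of 0.05 in edgeR's quasi-likelihood test over all genes, 8 of them higher and 9 lower in LARP6 cells. The same test called 6.03% of the 16226 genes tested, 9.43% of the 8858 tested genes with a mean of at least 400 counts, and 2.46% of the 2320 lncRNA genes tested (1.72% higher and 0.733% lower). By direction, 2.43% of all tested genes were called higher and 3.6% lower, and among those with at least 400 counts 3.32% and 6.11%. The log2 fold changes (LARP6 over control) of the 106 ran from -0.41 to 0.56 with a median of -0.02, beside a median of 0.00384 over all genes tested. Only 4 of the 17 calls reached 1.3-fold. The largest change was 1.47-fold higher and the largest fall 1.33-fold, and the median size of the called changes was 1.25-fold among the higher and 1.15-fold among the lower genes. Scaling by library size alone moved the split of higher and lower calls to 10 and 5, and offsets for GC content and length moved it to 6 and 4. Without LARP6 library 2 there were 9 calls, 5 higher and 4 lower.

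The share of all tested genes called also moved with these settings. It was 6.1% with scaling by library size alone, 3.72% with GC and length offsets, 5.32% under DESeq2 and 5.73% under limma-voom. Other scalings and filters gave 5.89% (RLE), 6% (upper-quartile), 6.01% (LARP6 left out of the counts), 7.21% (CPM above 1 in 3 libraries) and 2.9% (no filter). Without LARP6 library 1, 2 or 3 it was 2.78%, 2.76% and 6.3%, and without control library 1, 2 or 3 it was 4.85%, 3.94% and 4.14%. With a replicate block it was 8.29%, at an adjusted p below 0.01 it was 2.73%, and limma on log2 FPKM plus 0.1 or plus 1 called 0.567% and 0.555%.

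The libraries of the groups did not overlap in 33 of the 106 lncRNAs (31.1%), 17 higher and 16 lower in LARP6 cells. Such separation was found in 22.3% of all tested genes in 28.3% of those with at least 400 counts and in 14.9% of tested lncRNA genes, so the members' share lay close to that of genes at their level. Of the 17 called lncRNAs, 15 showed no overlap. Leaving out each library in turn kept 7 of the 17 calls in all 6 fits: ARHGAP27P1-BPTFP1-KPNA2P3, MIR100HG, MIR222HG, LINC00472, RP11-54H7.4, RP11-498C9.3 and LINC02574. The plot of called lncRNAs by library shows the 8 higher genes with all LARP6 points to the right of the control points, and among the 9 lower genes some points that meet.

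**Figure D1:**
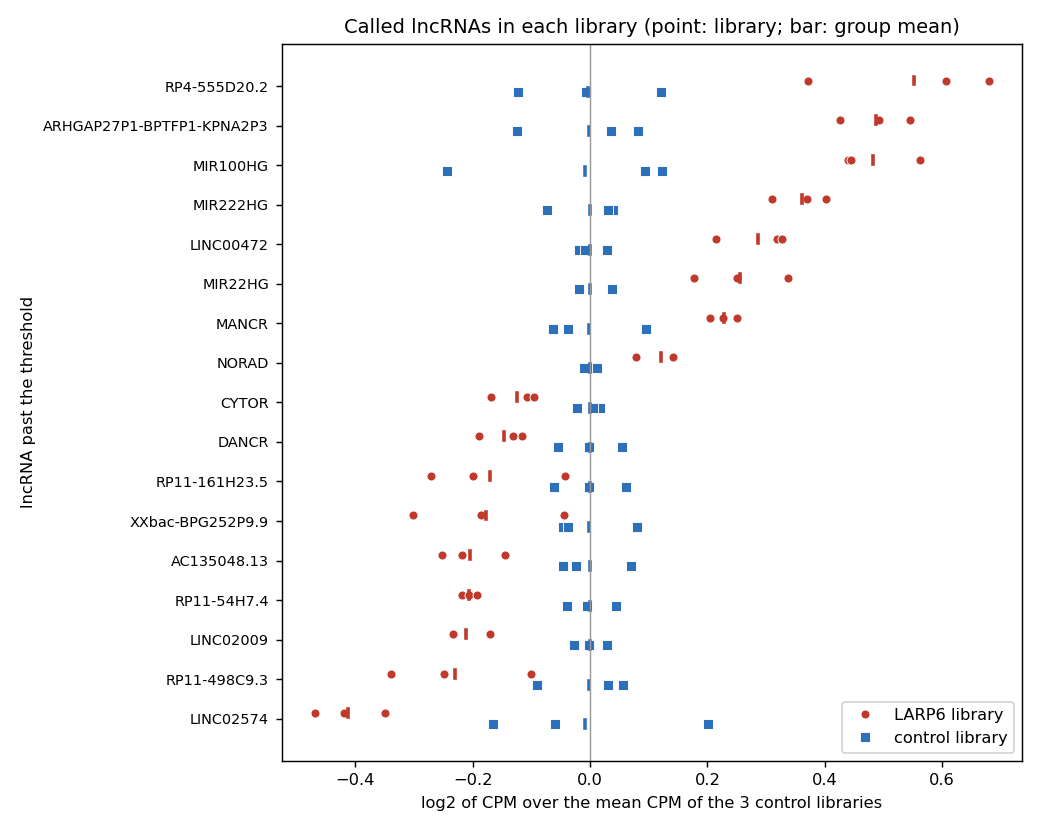
Each row is 1 of the 17 called lncRNAs and each point 1 library, plotted as the log2 of its CPM over the mean CPM of the 3 control libraries, with LARP6 libraries as red circles above and control libraries as blue squares below, and bars at the group means. Points of the groups meet in RP11-161H23.5 and XXbac-BPG252P9.9, and RP4-555D20.2 at the top has the largest rise with a wide spread in both groups.

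Among the 9 members found to hold a miRNA, 4 were higher in LARP6 cells, 2 were lower and 3 did not pass the test. Of the other 97 members, which include the unsearched ones on chromosome 8, 11 were called. The same test called 6.03% of all genes tested and 9.43% of those with a mean of at least 400 counts. The difference between holders and other members was not tested. MIR100HG, host of miR-100, miR-125b-1 and let-7a-2, had 16.8, 15.4 and 15.5 CPM in LARP6 libraries 1, 2 and 3, against 12.4, 12.1 and 9.60 CPM in control libraries 1, 2 and 3. Every LARP6 library was above every control library, and control library 3 was the lowest of all. The log2 fold change was 0.49 ± 0.08 (SE; edgeR adjusted p = 8.54e-06). MIR222HG, host of miR-221 and miR-222, which are often abundant in triple-negative breast cancer cells, had 18.9, 19.3 and 18.1 CPM in LARP6 libraries, against 15.0, 14.9 and 13.9 CPM in control libraries. The groups were narrow and did not overlap. Its log2 fold change was 0.36 ± 0.07 (SE; adjusted p = 0.000351), and this call held under all alternatives tried, tests on FPKM included.

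LINC00472, whose introns hold the miR-30a and miR-30c-2 hairpins, had 32.5, 32.7 and 30.2 CPM in LARP6 libraries, against 26.6, 25.7 and 25.9 CPM in control libraries. The groups did not overlap, and the log2 fold change was 0.29 ± 0.06 (SE; adjusted p = 0.000237). MIR22HG, which carries miR-22 in an exon, had 24.9, 26.5 and 23.7 CPM in LARP6 libraries, against 20.7, 21.5 and 20.7 CPM in control libraries. All LARP6 values were above all control values, and the log2 fold change was 0.26 ± 0.06 (SE; adjusted p = 0.00567), a call that was lost without LARP6 library 2.

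Both called holders that went down are better known as cancer-associated lncRNAs than as miRNA hosts. CYTOR, also called LINC00152, had 234, 244 and 246 CPM in LARP6 libraries, against 258, 266 and 264 CPM in control libraries. The groups did not overlap, and LARP6 library 1 was the lowest. The log2 fold change was -0.12 ± 0.03 (SE; adjusted p = 0.00158), and the call was lost without LARP6 library 1. DANCR, named for antagonising differentiation, had 52.9, 50.3 and 52.4 CPM in LARP6 libraries, against 57.3, 55.2 and 59.5 CPM in control libraries. Its groups did not overlap either, but the call (log2 fold change -0.15 ± 0.04, SE; adjusted p = 0.0265) was lost in 4 of the 6 fits that left out a library and under DESeq2, GC and length offsets and scaling by library size alone.

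MIR4435-2HG, a near-copy of part of CYTOR on the other arm of chromosome 2, had 166, 173 and 178 CPM in LARP6 libraries, against 183, 178 and 178 CPM in control libraries. The groups overlapped, and the log2 fold change of -0.06 did not pass the test (95% interval -0.12 to -0.000613; adjusted p = 0.261). Of the 50-base stretches of CYTOR's longest transcript, 19.1% were also found in other genes, mostly MIR4435-2HG. Of those of MIR4435-2HG's longest transcript, 45.5% were found elsewhere, mostly in CYTOR. Other exons of the 2 genes were not searched. The authors' counting could divide such reads between both genes, so the values of this pair are uncertain. MIR4458HG, which holds a miRNA with the let-7 seed, had a log2 fold change of -0.01 (95% interval -0.16 to 0.14) and did not pass the test.

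The 17 tested genes of miRNA processing, among them DROSHA, DICER1 and XPO5, gave 0 calls in edgeR's test, in DESeq2 and in limma-voom, and their log2 fold changes ran from -0.12 to 0.27. At an unadjusted p below 0.05, 7 of the 17 were higher and 1 was lower in LARP6 cells. The share of all tested genes below that unadjusted p was not counted, so these numbers cannot be judged against it.

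**Figure D2:**
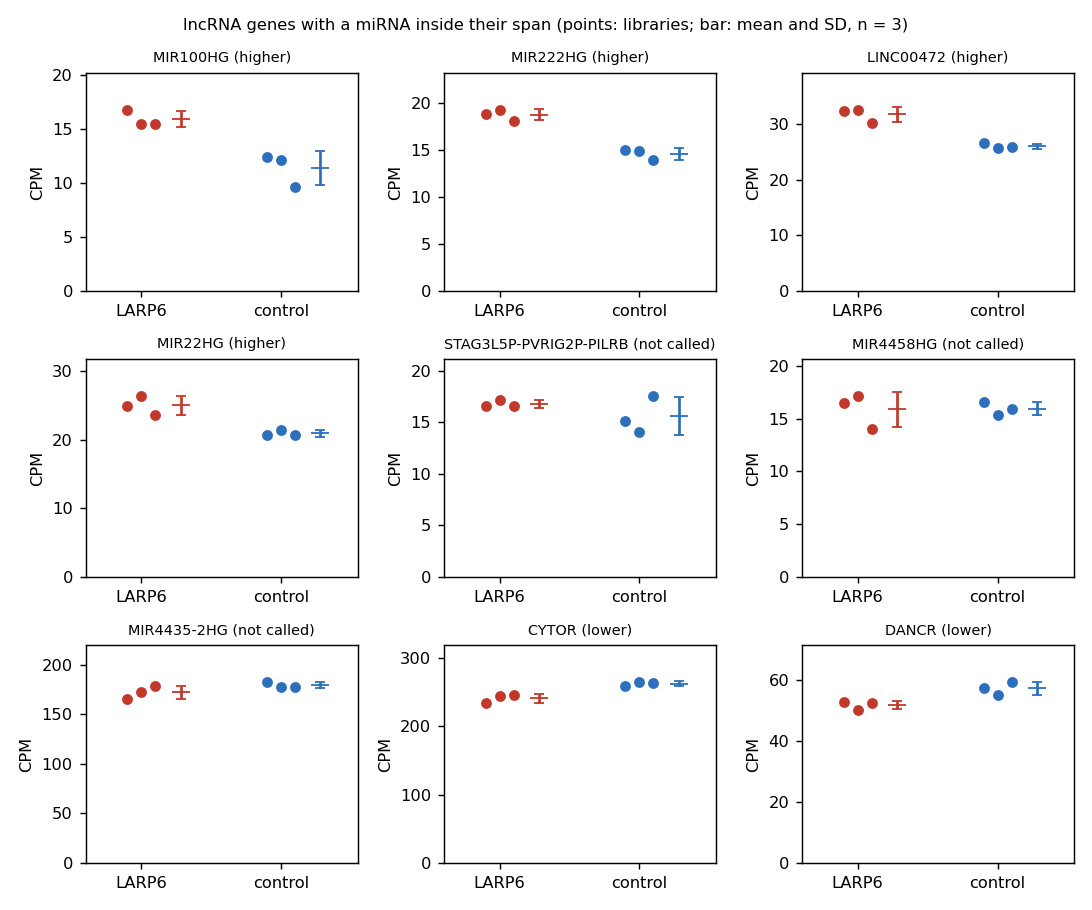
CPM in each library (points) of the 9 lncRNA genes found to hold a mature miRNA, with chromosome 8 not searched. LARP6 libraries are in red on the left and control libraries in blue on the right, with the mean and SD of 3 libraries beside them. MIR100HG, MIR222HG, LINC00472 and MIR22HG are higher, CYTOR and DANCR are lower in LARP6 cells, and points of the groups mix in the other 3.

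NORAD rose by a small and even step. It had 211, 211 and 202 CPM in LARP6 libraries 1, 2 and 3, against 191, 193 and 190 CPM in control libraries 1, 2 and 3. All LARP6 libraries were above all control libraries, and LARP6 library 3 was the nearest to them. The log2 fold change was 0.12 ± 0.03 (SE; edgeR adjusted p = 0.00375), or 34.3 against 31.0 on the FPKM scale, which divides counts by gene length and depth. The call was lost without LARP6 library 2 and in the tests on FPKM, and with offsets for GC content and length the adjusted p was 0.259. Of NORAD's 50-base stretches 30.3% were found in other genes, most of them in OVCH1-AS1. PUM2, which encodes a Pumilio protein that it binds, did not pass the test (log2 fold change 0.09, adjusted p = 0.179).

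The other 3 higher lncRNAs held no annotated miRNA. RP4-555D20.2, a single-exon gene of 5067 bases (chr3:44117299-44122365), had 64.7, 68.0 and 54.9 CPM in LARP6 libraries, against 42.2, 39.0 and 46.1 CPM in control libraries. The groups were well apart, yet each had a spread of several CPM, with 62.5 ± 6.80 CPM in LARP6 cells and 42.4 ± 3.59 CPM in control cells (SD, n = 3 each). Its log2 fold change of 0.56 ± 0.10 was the largest among the 106 (SE; adjusted p = 0.0201). The call was lost when either control library 1 or LARP6 library 1 was left out, with GC and length offsets and with a replicate block.

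ARHGAP27P1-BPTFP1-KPNA2P3, a readthrough transcript across 3 pseudogenes on chromosome 17, had 16.01, 16.60 and 15.29 CPM in LARP6 libraries, against 10.44, 11.66 and 12.04 CPM in control libraries. The groups did not overlap, and the log2 fold change of 0.49 ± 0.08 (SE; adjusted p = 4.45e-06) passed under all alternatives tried. Of its 50-base stretches 20.3% were found elsewhere, mostly in KPNA2, whose own log2 fold change was 0.02 (adjusted p = 0.705). MANCR, the mitotically associated lncRNA described in breast cancer cells, had 22.9, 22.5 and 22.2 CPM in LARP6 libraries, against 18.8, 18.4 and 20.6 CPM in control libraries. LARP6 libraries were nearly alike and all above the control libraries, but the call (log2 fold change 0.23 ± 0.07, SE; adjusted p = 0.0250) was lost in 4 of the 6 fits that left out a library and under DESeq2.

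The lncRNA with the most reads fell. RP11-54H7.4, now LINC03061, a single-exon transcript of 4205 bases on chromosome 13, had 385, 387 and 391 CPM in LARP6 libraries, against 435, 445 and 461 CPM in control libraries. The LARP6 libraries lay close together and all below the lowest control library. Its log2 fold change was -0.21 ± 0.03 (SE; adjusted p = 9.11e-10), the smallest p of the 106, and it passed under all alternatives tried. Its nearest coding start, that of IRS2, lies 516934 bases away.

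LINC02574 had the largest fall of the set. It had 22.2, 21.2 and 20.5 CPM in LARP6 libraries, against 27.2, 32.6 and 25.3 CPM in control libraries. The groups did not overlap, and control library 2 stood above the other controls. Its log2 fold change was -0.41 ± 0.07 (SE; adjusted p = 5.21e-06). The gene lies 9496 bases from the start of IFI6, an interferon-induced gene on the same strand, which had 48.3, 50.4 and 53.8 CPM in LARP6 libraries, against 56.8, 66.1 and 58.9 CPM in control libraries. IFI6 also was highest in control library 2, its groups did not overlap, and its log2 fold change was -0.25 ± 0.05 (SE; adjusted p = 5.93e-05). LINC02009 had 24.1, 23.0 and 23.0 CPM in LARP6 libraries, against 27.6, 26.6 and 27.0 CPM in control libraries. Its groups did not overlap (log2 fold change -0.21 ± 0.06, SE; adjusted p = 0.0204), although the call was lost in 3 of the 6 fits that left out a library, under DESeq2 (adjusted p = 0.0551) and with scaling by library size alone. The nearest coding start, 16428 bases away, is that of CCRL2, a chemokine-receptor-like gene that did not pass the test (log2 fold change -0.05, adjusted p = 0.523).

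Most cancer-associated lncRNAs of a textbook list did not pass the test. Of 11 such members, 0 rose, 2 fell (CYTOR and DANCR) and 9 were not called. The 2 calls are 18.2% of the 11, beside 6.03% of all genes tested and 9.43% of those with at least 400 counts. UCA1, first described in urothelial carcinoma, had 40.8, 41.3 and 45.9 CPM in LARP6 libraries, against 43.5, 42.2 and 42.1 CPM in control libraries, and its log2 fold change was 0.00 (95% interval -0.09 to 0.10). HCG18 had a log2 fold change of 0.05 (95% interval -0.04 to 0.15). CRNDE, first found in colorectal tumours, had the largest positive value of the 9 at 0.15 (95% interval 0.00725 to 0.30; adjusted p = 0.237), with overlapping groups. LINC00467, LINC00511, LINC00963, LINC00973 and MIR4435-2HG ranged between -0.06 and 0.07. At an unadjusted p below 0.05, 1 of the 11 was higher and 3 were lower, without a count of all tested genes below that p. DESeq2 and limma-voom called 0 of them higher, and 1 and 2 of them lower.

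Among lncRNAs known to act on a neighbouring gene, 0 of 3 were called by edgeR. CHASERR, which represses the chromatin remodeller gene CHD2 next to it, had 43.4, 42.9 and 45.3 CPM in LARP6 libraries, against 45.1, 44.4 and 44.2 CPM in control libraries. The groups overlapped and the log2 fold change was -0.02 (95% interval -0.12 to 0.07). CHD2 itself rose, with 37.1, 37.2 and 36.8 CPM in LARP6 libraries, against 34.3, 32.8 and 31.0 CPM in control libraries (log2 fold change 0.18 ± 0.05, SE; adjusted p = 0.0263). PVT1, the neighbour of MYC, had a log2 fold change of 0.05 (95% interval -0.08 to 0.18), and MYC one of -0.06 (adjusted p = 0.321). JPX, an activator of X inactivation, had a log2 fold change of -0.06 (95% interval -0.20 to 0.09). DESeq2 and limma-voom also called 0 of these 3 lncRNAs, and 0 had an unadjusted p below 0.05.

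The 106 lncRNAs were also grouped by their position relative to coding exons. In GENCODE v29, 56 lay apart from coding exons, 20 had at least 10% of their exonic bases on the opposite strand of a coding exon, 24 had as much on the same strand, 3 were annotated as coding there and 3 had no entry. Members that met both strand criteria, RP11-197N18.2 and PP7080 among them, were placed in the same-strand group only. All 8 higher calls and 5 of the 9 lower calls fell among the 56 that lay apart. The opposite-strand group had 0 higher and 3 lower calls, the same-strand group 0 higher and 1 lower call. Called members made up 23.2% of the 56, 15% of the 20 and 4.17% of the 24, beside 6.03% of all genes tested and 9.43% of those with at least 400 counts. DESeq2 and limma-voom also called 0 of the 20 opposite-strand and 0 of the 24 same-strand lncRNAs higher. They called 3 and 3 of the 20 lower, and 0 and 1 of the 24. At an unadjusted p below 0.05, edgeR had 0 higher and 8 lower of the 20, and 1 higher and 1 lower of the 24. The share of all tested genes below that unadjusted p was not counted. The median log2 fold change was 0.02 among the 56, -0.13 among the 20 and -0.02 among the 24. The plot of change against level shows the opposite-strand group below 0 at nearly every level.

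**Figure D3:**
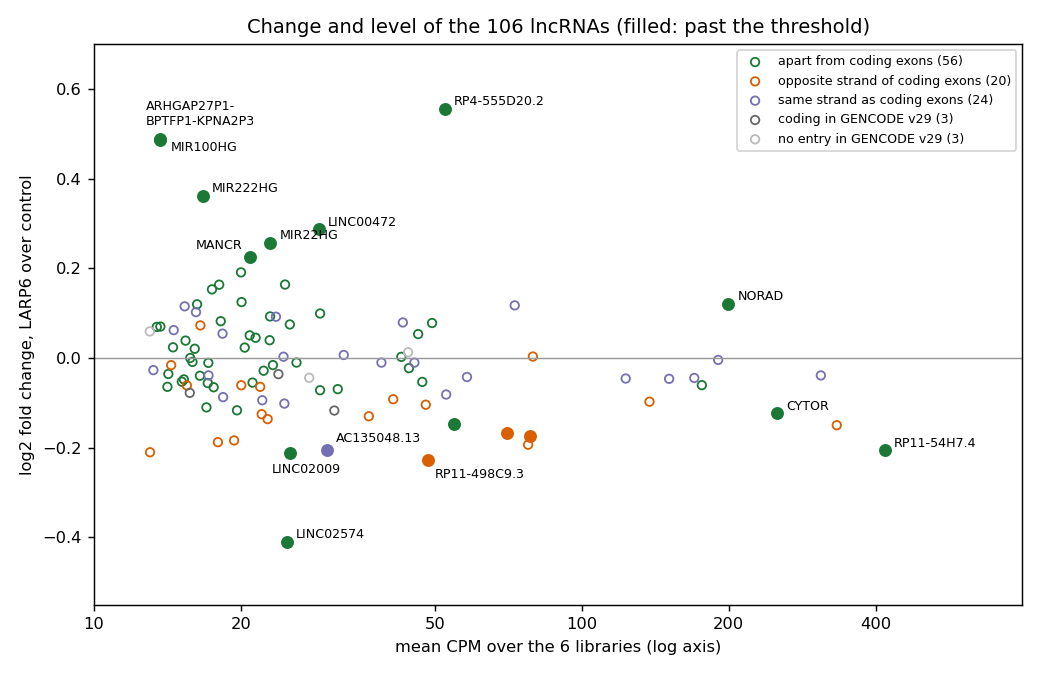
Log2 fold change (LARP6 over control) of each of the 106 lncRNAs against its mean CPM over the 6 libraries (log axis), coloured by position relative to coding exons, with filled points for called lncRNAs. All 8 higher calls are green points that lie apart from coding exons, and 18 of the 20 orange opposite-strand points are below 0.

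Of the 20 opposite-strand lncRNAs, 18 had a log2 fold change below 0, but libraries within a group differed by more than the group means did. The share of all counts taken by these 20 genes was 0.120%, 0.106% and 0.102% in LARP6 libraries 1, 2 and 3, against 0.118%, 0.124% and 0.110% in control libraries 1, 2 and 3. LARP6 library 1 was above control libraries 1 and 3, and the groups overlapped. The means were 0.109% ± 0.00926 in LARP6 cells and 0.117% ± 0.00743 in control cells (SD, n = 3 each), with an exact two-sided permutation p of 0.3, where 0.1 is the smallest p this design can give. The median coefficient of variation within a group was 8.71% in LARP6 cells and 6.31% in control cells for these 20, against 4.40% and 4.04% for the lncRNAs apart from coding exons. Lower calls in this group numbered 7 with control library 3 left out, 6 with LARP6 library 1 left out, and 1 when control library 2, LARP6 library 2 or LARP6 library 3 was the one left out. With GC and length offsets there were 0, and 17 of the 20 remained below 0.

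The reads of such a lncRNA can be set against those of the coding gene across from it. Among 12 pairs with at least 50% of the lncRNA's exonic bases in the partner's exons and a partner mean of at least 400 counts, the lncRNA had 0.784% to 6.75% of its partner's counts. RP5-940J5.9, which lies entirely across the exons of the glycolytic gene GAPDH, had 5.73%, 5.11% and 4.79% of GAPDH's counts in LARP6 libraries 1, 2 and 3, against 5.78%, 6.04% and 5.09% in control libraries 1, 2 and 3. LARP6 library 1 was among the control values, and control library 3 was below the other controls. This pattern recurred: LARP6 library 1 was the highest LARP6 library in 12 of the 12 pairs, and control library 3 the lowest control library in 11. The median share, relative to each pair's mean over the 6 libraries, was 1.07, 0.952 and 0.883 in LARP6 libraries 1, 2 and 3, against 1.06, 1.08 and 0.959 in control libraries 1, 2 and 3. In all 12 pairs the groups overlapped, and in 10 the mean share was lower in LARP6 cells. The part of this library difference in the lower values of opposite-strand lncRNAs was not tested.

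**Figure D4:**
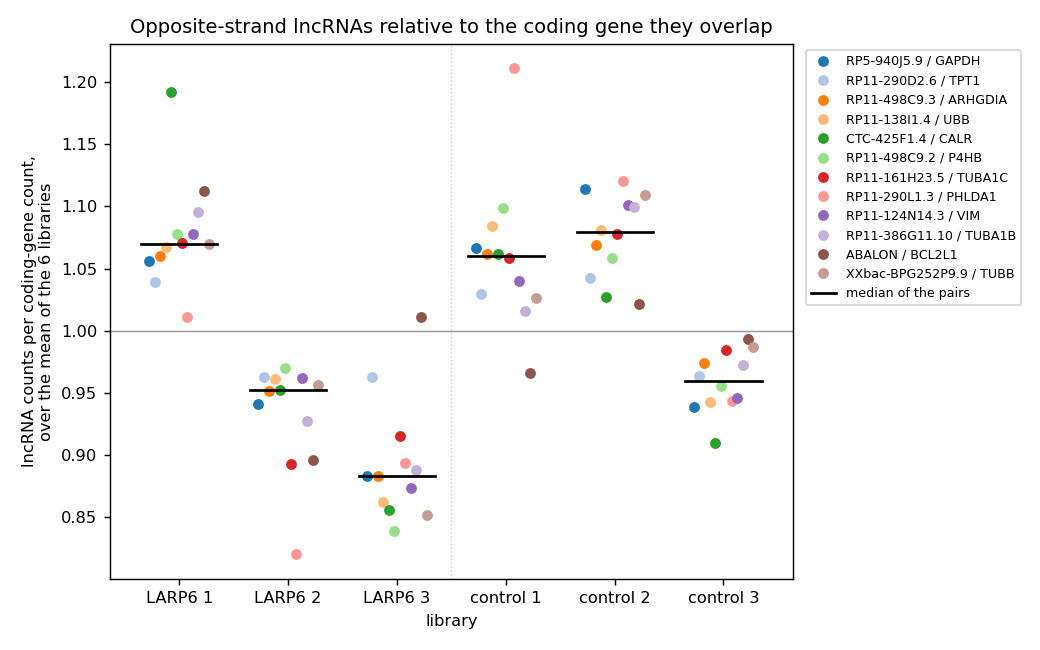
Counts of 12 opposite-strand lncRNAs per count of the coding gene they overlap, divided by each pair's mean over the 6 libraries, with a colour per pair and black bars at the median of the pairs. LARP6 library 1 and control libraries 1 and 2 have medians of 1.06 to 1.08, while LARP6 libraries 2 and 3 and control library 3 have medians of 0.883 to 0.959.

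The 3 called members of this group were opposite to ARHGDIA, TUBA1C and TUBB. RP11-498C9.3 (chr17:81867721-81868552), across from ARHGDIA, had 48.6, 43.8 and 41.2 CPM in LARP6 libraries, against 54.2, 53.2 and 49.0 CPM in control libraries. The groups came close but did not overlap (log2 fold change -0.23 ± 0.05, SE; adjusted p = 0.000778). With GC and length offsets this call was lost (adjusted p = 0.0553). ARHGDIA fell as well, with 823, 826 and 837 CPM in LARP6 libraries, against 915, 894 and 902 CPM in control libraries (log2 fold change -0.12 ± 0.02, SE; adjusted p = 0.000211). As a percent of ARHGDIA, the lncRNA stood at 5.91, 5.31 and 4.92 in LARP6 libraries, against 5.92, 5.96 and 5.43 in control libraries, and these shares overlapped.

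RP11-161H23.5, across from the tubulin gene TUBA1C, had 72.3, 61.7 and 64.8 CPM in LARP6 libraries, against 74.4, 77.7 and 71.3 CPM in control libraries. LARP6 library 1 was above control library 3, so the groups overlapped (log2 fold change -0.17 ± 0.04, SE; adjusted p = 0.00745). XXbac-BPG252P9.9, across from the tubulin gene TUBB, had 80.4, 72.9 and 67.3 CPM in LARP6 libraries, against 80.3, 87.7 and 80.9 CPM in control libraries. Its groups also overlapped (log2 fold change -0.17 ± 0.05, SE; adjusted p = 0.0228). Both calls were lost in 3 of the 6 fits that left out a library, with GC and length offsets and with scaling by library size alone, and that of RP11-161H23.5 also under DESeq2 (adjusted p = 0.0530). TUBA1C (log2 fold change -0.05, adjusted p = 0.255) and TUBB (-0.05, adjusted p = 0.197) did not pass the test.

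Other abundant members of this group did not pass. RP5-940J5.9 had a log2 fold change of -0.15 ± 0.09 (SE; adjusted p = 0.478), RP11-386G11.10, across from TUBA1B and now TUBA1B-AS1, one of -0.10 ± 0.08, and RP11-124N14.3, across from the vimentin gene VIM, one of 0.00 ± 0.10. RP5-940J5.9 was called lower without control library 3 (adjusted p = 9.38e-09), and RP11-386G11.10 without LARP6 library 1 (adjusted p = 0.000916). VIM itself rose slightly (log2 fold change 0.09 ± 0.02, SE; adjusted p = 0.0166). The library kit kept strand information, but the strand setting of the counting is not given in the sources used here. Reads of these lncRNAs and of their partners therefore cannot be told apart from the counts.

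Same-strand lncRNAs were set beside the coding gene they overlap as well. Among 22 such pairs with a tested partner, 16 had log2 fold changes of the same sign (against 17 of the 20 opposite-strand pairs), with a median absolute difference of 0.06 between lncRNA and partner. The 1 call was AC135048.13, which overlaps the calcium channel gene ORAI3. It had 29.1, 27.0 and 27.6 CPM in LARP6 libraries, against 31.1, 33.7 and 31.6 CPM in control libraries, without overlap (log2 fold change -0.20 ± 0.06, SE; adjusted p = 0.0153). The call was lost without control library 2, without LARP6 library 2, under DESeq2 (adjusted p = 0.0528) and with GC and length offsets (adjusted p = 0.170). ORAI3 had 27.1, 27.0 and 26.8 CPM in LARP6 libraries, against 29.5, 30.8 and 31.4 CPM in control libraries (log2 fold change -0.18 ± 0.06, SE; adjusted p = 0.0398). Both were lower in every LARP6 library than in any control library, and reads on shared exons cannot be assigned to one of them.

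**Figure D5:**
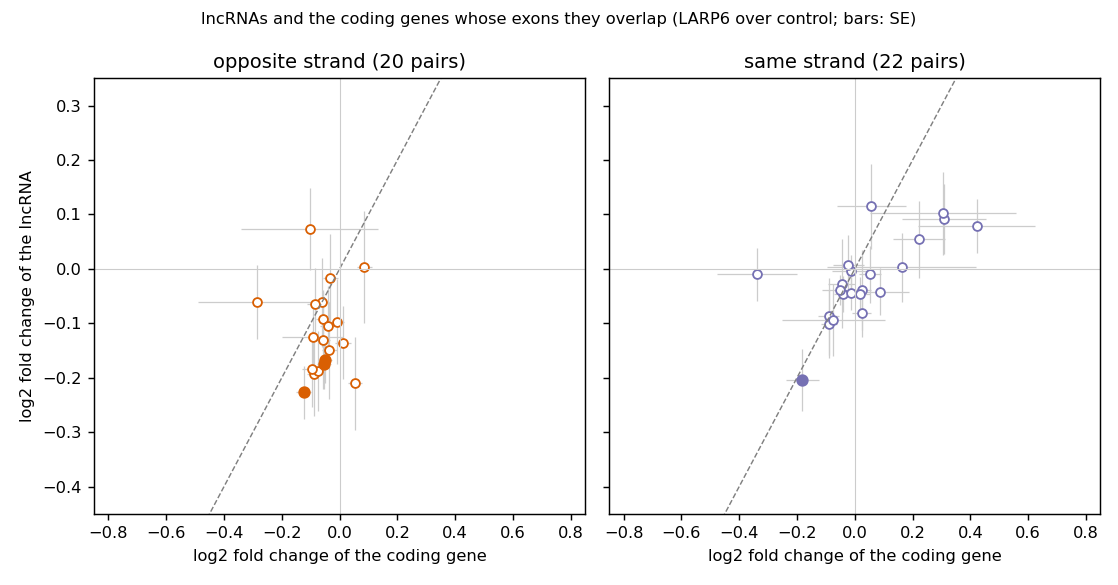
Log2 fold change (LARP6 over control) of each lncRNA against that of the coding gene whose exons it overlaps, for 20 opposite-strand pairs on the left and 22 same-strand pairs on the right, with bars of 1 SE, filled points for called lncRNAs and a dashed line of equal change. Most opposite-strand points lie below the line and below 0, whereas same-strand points spread on both sides of 0.

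Other abundant same-strand members were not called. RP11-793H13.8 (overlapping PCBP2), RP11-186B7.4 (EIF4A1), RP11-197N18.2 (OGFOD2) and XXbac-BPG254B15.11 (HSPA1B) had log2 fold changes of -0.05 to 0.00, and none of these 4 passed the test. Of the 50-base stretches of XXbac-BPG254B15.11, 63.8% were found elsewhere, mostly in HSPA1A. In all, 13 of the 106 shared at least 10% of such stretches with other genes. Mean levels over the 6 libraries ran from 13.0 to 417 CPM.

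For the lncRNAs that lay apart from coding exons, the nearest coding gene was set beside each. Of the 31 such lncRNAs with the nearest tested coding start within 50000 bases, 18 had a log2 fold change of the same sign as the neighbour. In 5 pairs the lncRNA was called, in 6 the neighbour, and in 1, LINC02574 and IFI6, both. MGAT1, called lower, was the nearest gene to both LINC00847 and HEIH and is counted once for each. Over all genes tested, 6.03% were called. Over these 31 pairs Pearson's r between the log2 fold changes was 0.20, given as a description across genes from the same 6 libraries. In 11 pairs with starts on opposite strands within 1000 bases, 4 had the same sign. Only those with the coding start upstream of the lncRNA's start are divergent. In others, MIR22HG and WDR81 among them, the coding start lies inside the lncRNA gene. MIR22HG was the only lncRNA called among these 11, and its neighbour WDR81 did not pass (log2 fold change -0.07, adjusted p = 0.639). In a pair chosen after its values were seen, CAPRIN2, an RNA-binding protein gene, rose (log2 fold change 0.46 ± 0.07, SE; adjusted p = 8.25e-08) while the divergent LINC00941 had a log2 fold change of -0.05 and was not called.

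The calls were also counted by the kind of name. Of the 50 members with a gene symbol, 7 were higher and 4 lower, and of the 56 known by a clone name 1 was higher and 5 were lower. Calls made up 22% of the 50 and 10.7% of the 56, beside 6.03% of all genes tested and 9.43% of those with at least 400 counts. The difference in these counts was not tested, and 40 of the 44 lncRNAs that overlap coding exons on either strand had clone names.

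Taken as a sum, the 106 lncRNAs held nearly the same share of all counts in both groups. The share was 0.513%, 0.502% and 0.498% in LARP6 libraries 1, 2 and 3, against 0.511%, 0.518% and 0.504% in control libraries 1, 2 and 3. The groups overlapped, with means of 0.504% ± 0.00783 in LARP6 cells and 0.511% ± 0.00671 in control cells (SD, n = 3 each; exact two-sided permutation p = 0.3, where the smallest possible is 0.1). The 10 most abundant members held 46.0% of these counts. Their share was 0.229% ± 0.00242 in LARP6 cells and 0.238% ± 0.00404 in control cells, below every control library in each LARP6 library (SD, n = 3 each; exact permutation p = 0.1).

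The machinery that makes, exports or degrades lncRNAs was read from the same fit. From 5 lists of coding genes, 94 were tested, of which 2 rose and 2 fell. Over all 16226 genes tested, 2.43% were called higher and 3.6% lower, so calls were no more frequent in these lists than in the whole table. In the nuclear exosome and its adaptors, ZFC3H1, an adaptor for polyadenylated nuclear RNA, rose to 25.7 CPM in LARP6 cells, against 22.2 CPM in control cells (log2 fold change 0.21 ± 0.07, SE; adjusted p = 0.0302), although its groups overlapped. EXOSC5, a core exosome subunit, fell to 34.2 CPM in LARP6 cells, against 38.7 CPM in control cells (-0.18 ± 0.05; adjusted p = 0.0231). INTS8, a subunit of the Integrator complex, rose (0.24 ± 0.07; adjusted p = 0.0161), and ALYREF, an mRNA export factor listed with NORAD's partners, fell (-0.12 ± 0.03; adjusted p = 0.00605). Of the 20 cleavage and polyadenylation genes, 0 were called by edgeR, DESeq2 or limma-voom, and 2 were higher and 1 lower at an unadjusted p below 0.05. The share of all tested genes below that unadjusted p was not counted. Without LARP6 library 2 none of the 94 genes was called by edgeR, and scaling by library size alone called 8.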

How the data were processed

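Messenger RNA libraries from MDA-MB-231 cells (3 overexpressing LARP6, 3 with a no-load control, grouped by their titles and genotype labels) were prepared with a strand-keeping kit after DNase treatment and read from both ends (150 bases each), per the labels' protocols. The authors deposited read counts per gene and FPKM values, which scale counts by gene length and depth. The submitters' processing notes name HISAT2 and DESeq2 and the build GRCh38. Not given in the sources used here are the read counter, its strand setting, its treatment of reads that match several genes and the annotation it used.

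Deposited counts were tested over the whole table with edgeR 4.0.16 in R 4.3.3 (robust quasi-likelihood test, TMM scaling, edgeR's expression filter, no covariate), with Benjamini-Hochberg adjustment over 16226 genes and calls below 0.05. Adjusted p-values, standard errors and 95% intervals are from this fit, and intervals are not adjusted for the number of genes. CPM use TMM-scaled library sizes. The coefficient of variation between libraries, from the common dispersion, was 3.23%. Depth was 29409101 to 33387050 counts. The members, lists and tests were chosen with earlier results of these data known. Named lncRNAs were the 12 with the highest CPM, all called members, the members of the role lists (miRNA hosts and cancer-associated, stress, X-inactivation, inflammation-linked and neighbour-acting lncRNAs) and 3 on either side of the count minimum. From each list of coding genes, called genes were named. The inflammation-linked list held CYTOR and MIR222HG. IFI6, CCRL2, CHD2, MYC, WDR81, KPNA2 and the overlapping coding genes are named as neighbours or partners of a named lncRNA, and DROSHA, DICER1, XPO5 and PUM2 for their roles. Some results that the rule names are not reported here.

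GENCODE v29 (GRCh38) held 103 of the 106 and gave positions, transcripts, GC content and overlap with coding exons. Distances are between annotated start sites. Repeated sequence was searched as exact stretches of 50 bases of each member's longest transcript. Alternatives were RLE, upper-quartile and library-size scaling, LARP6 left out, other filters, DESeq2 1.42.0, limma-voom and limma 3.58.1 on log2 of the deposited FPKM plus 1 or 0.1, GC and length offsets, a replicate block, an adjusted p below 0.01 and each library left out. The script was tested on simulated counts. Splicing and RNA binding were not analysed here.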

Additional observations from a re-analysis of the deposited data

How the results depend on the processing

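Of the 17 called lncRNAs, 17 kept their call under RLE and upper-quartile scaling, without LARP6 in the counts, under both other filters and under limma-voom, and 12 under DESeq2. With GC and length offsets 10 were called (6 higher, 4 lower), and 1 gene of the partner lists in place of 4. By library size alone 5 were lower, 8 partner genes were called and the median log2 fold change was 0.00124 (over all genes, 0.03). Limma on log2 FPKM plus 1 or plus 0.1 called 4 (3 higher, 1 lower) and 0 partner genes, with medians of 3.9e-05 and 0.00011. It lost 13 of the 17 calls, those of NORAD, MIR100HG, LINC00472, MIR22HG, CYTOR and LINC02574 among them. DESeq2 called 1 partner gene. An adjusted p below 0.01 left 11 (5 lower) and 1 partner gene. Leaving out each library gave 9 to 20 calls, 5 to 8 higher, 4 to 12 lower, 0 to 6 partner genes and medians of -0.036 to -0.0087, and the lowest counts came without LARP6 library 2. Whether the replicate numbers pair the libraries is not settled by these data. Correlations between same-numbered libraries were 0.0985, 0.0444 and 0.234, and those between other pairs ran from -0.158 to 0.0737. LARP6 libraries 1 and 3 correlated best with the control library of the same number, and LARP6 library 2 with control library 1. With the replicate block 19 lncRNAs and 8 partner genes were called, 1345 of all genes in place of 979. It ended the call of RP4-555D20.2 (adjusted p = 0.124) and added 3, among them RP5-940J5.9 (adjusted p = 0.0380). The cause of these differences was not tested. Fits that leave out a library also rest on fewer libraries. Among the 40 named lncRNAs no called change reversed its sign. Precision is limited by 3 libraries a group.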
